A study of Mus musculus with 12 samples.

Results

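The cytosolic ribosomal protein genes are described here in mouse bone marrow neutrophils cultured with bile acids. Genes were taken by name from the deposited count table: those named Rps or Rpl with a number, with an optional a, x, y or l and a further number, together with Rpsa, Rplp0, Rplp1, Rplp2 and Fau, without ribosomal S6 kinases and rows marked as pseudogenes by -ps. Of 29737 genes in the table, 88 had such a name, and the 87 with a mean of at least 10 counts over the 12 samples were kept. Rpl39l was below that mean, at 0.833 counts. The members comprised 37 genes of the small (40S) subunit and 50 of the large (60S) subunit, and all 87 passed the filter on low counts.

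Ly6G+ neutrophils were sorted with magnetic beads from the bone marrow of mice labelled WT and cultured for 24 h. Controls received PBS, and the other groups received taurocholic acid (TCA, 200 μM), glycocholic acid (GCA, 200 μM) or tauro-β-muricholic acid (Tβ-MCA), each with 3 samples. For Tβ-MCA the labels give 10 μM, whereas the methods of the study give the same dose as for the other bile acids. No mouse age, sex or strain is given in the labels. For its animals in general, the methods of the study name female C57BL/6 mice, 4 to 6 weeks of age. Nothing in the labels says that samples of a group came from separate animals or cultures, so the p-values measure only the spread between these samples. Total counts ranged from 32757389 to 41375925 per sample. PBS samples are numbered 3, 5 and 6 in the labels, whereas samples of every bile acid are numbered 3, 4 and 5. All 12 neutrophil markers, Ly6g and S100a8 among them, were detected and summed to between 30440 and 43470 CPM. The 11 markers of immature granulocytes, which share Camp and Ltf with that list, summed to between 18260 and 30170 CPM. For sums of markers, CPM are scaled to the total count of the sample. For single genes, CPM are scaled to the TMM-normalized depth of the sample. Markers of other cells summed to 607.9 to 3798 CPM for monocytes and macrophages, 271.8 to 365.4 CPM for B cells, 73.8 to 275.2 CPM for eosinophils and basophils and 49.5 to 84.6 CPM for plasmacytoid and dendritic cells. Most of the B cell sum was Cd37, at 259.8 to 360 CPM, whereas Cd79a was at 1.765 to 4.112 CPM and Cd79b at 0.4321 to 1.645 CPM. Erythroid markers summed to at most 5.56 CPM and those of T and NK cells to at most 3.94 CPM.

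Each cytosolic ribosome contains ribosomal RNA and 1 copy of most ribosomal proteins. The proteins are therefore needed in equal amounts, and their genes are commonly regulated together. Most of their mRNAs begin with a 5′ terminal oligopyrimidine (TOP) tract, a C followed by an uninterrupted run of C and T (U in the RNA), through which mTORC1 and the RNA-binding protein Larp1 control their translation. Mature neutrophils are short-lived, non-dividing cells that synthesise less protein than their precursors in the marrow.

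The sequences around the annotated starts show this tract in some of the genes to which the results refer, and its absence in others. RefSeq promoter sequences (build GRCm38.p6) matched 62 of the 87 members. Each sequence below runs 5′ to 3′ on the strand of the gene, with 15 bases before the annotated start followed by 15 bases from it. Capitals mark a run of at least 7 pyrimidines that opens with C. Rpl15 lies on the minus strand (chr14:18270972-18271001), Rps6 on the minus strand (chr4:86857353-86857382), Fau on the plus strand (chr19:6057932-6057961), Rpl5 on the plus strand (chr5:107900513-107900542), Rpl7l1 on the minus strand (chr17:46782642-46782671) and Rpl3l on the plus strand (chr17:24727811-24727840).
Rpl15: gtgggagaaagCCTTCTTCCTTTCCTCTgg
Rps6: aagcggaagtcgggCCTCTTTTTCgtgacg
Fau: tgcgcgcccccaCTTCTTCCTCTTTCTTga
Rpl5: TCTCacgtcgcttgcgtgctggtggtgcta
Rpl7l1: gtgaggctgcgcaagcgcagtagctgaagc
Rpl3l: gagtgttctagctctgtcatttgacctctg

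Such a run opened within 5 bases of an annotated start in 20 of the 62 members (32.3%), against 6.68% of 27025 genes with a promoter sequence. Within 25 bases of the start it was found in 39 members (62.9%), against 26.8% of the genes. The letters CTTCCG, which are the core of a binding site of ETS-family factors, were sought on both strands from 100 bases before to 50 bases after the start. They were present in 31 members (50%) and in 13.5% of the genes. In Rpl5 the capitals are the end of a run that opened before the printed window. Rpl7l1 and Rpl3l, which are paralogs of Rpl7 and Rpl3, had no such run within 25 bases of the printed start.

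Levels differed widely between the members and little between the groups. In RPKM, in which a count is scaled to merged exon length and to the depth of its sample, the median member was at 81.3 with PBS, 78.9 with TCA, 85.8 with Tβ-MCA and 81.1 with GCA. With PBS the middle of the range, from the lower to the upper quartile of the members, ran from 35.6 to 206 RPKM. Across the 87 members, the rank correlation of group means with those of PBS was 0.999 for TCA, 0.998 for Tβ-MCA and 0.999 for GCA (Spearman, as a description).

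The members of highest mean RPKM were Rpl23a, Rpl19 and Fau. Rpl23a, a 60S protein near the exit of the peptide tunnel, was at 1376 ± 190 RPKM with PBS (SD, n = 3), 1313 ± 153 with TCA, 1268 ± 116 with Tβ-MCA and 1256 ± 117 with GCA. Rpl19 was at 754 ± 93 RPKM with PBS and 740 ± 33 with Tβ-MCA. Fau, which encodes the 40S protein Rps30 fused to a ubiquitin-like protein, was at 734 ± 137 RPKM with PBS and 730 ± 58 with Tβ-MCA. For all 3 genes the difference between group means was smaller than the SD of the PBS samples.

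**Figure D1:**
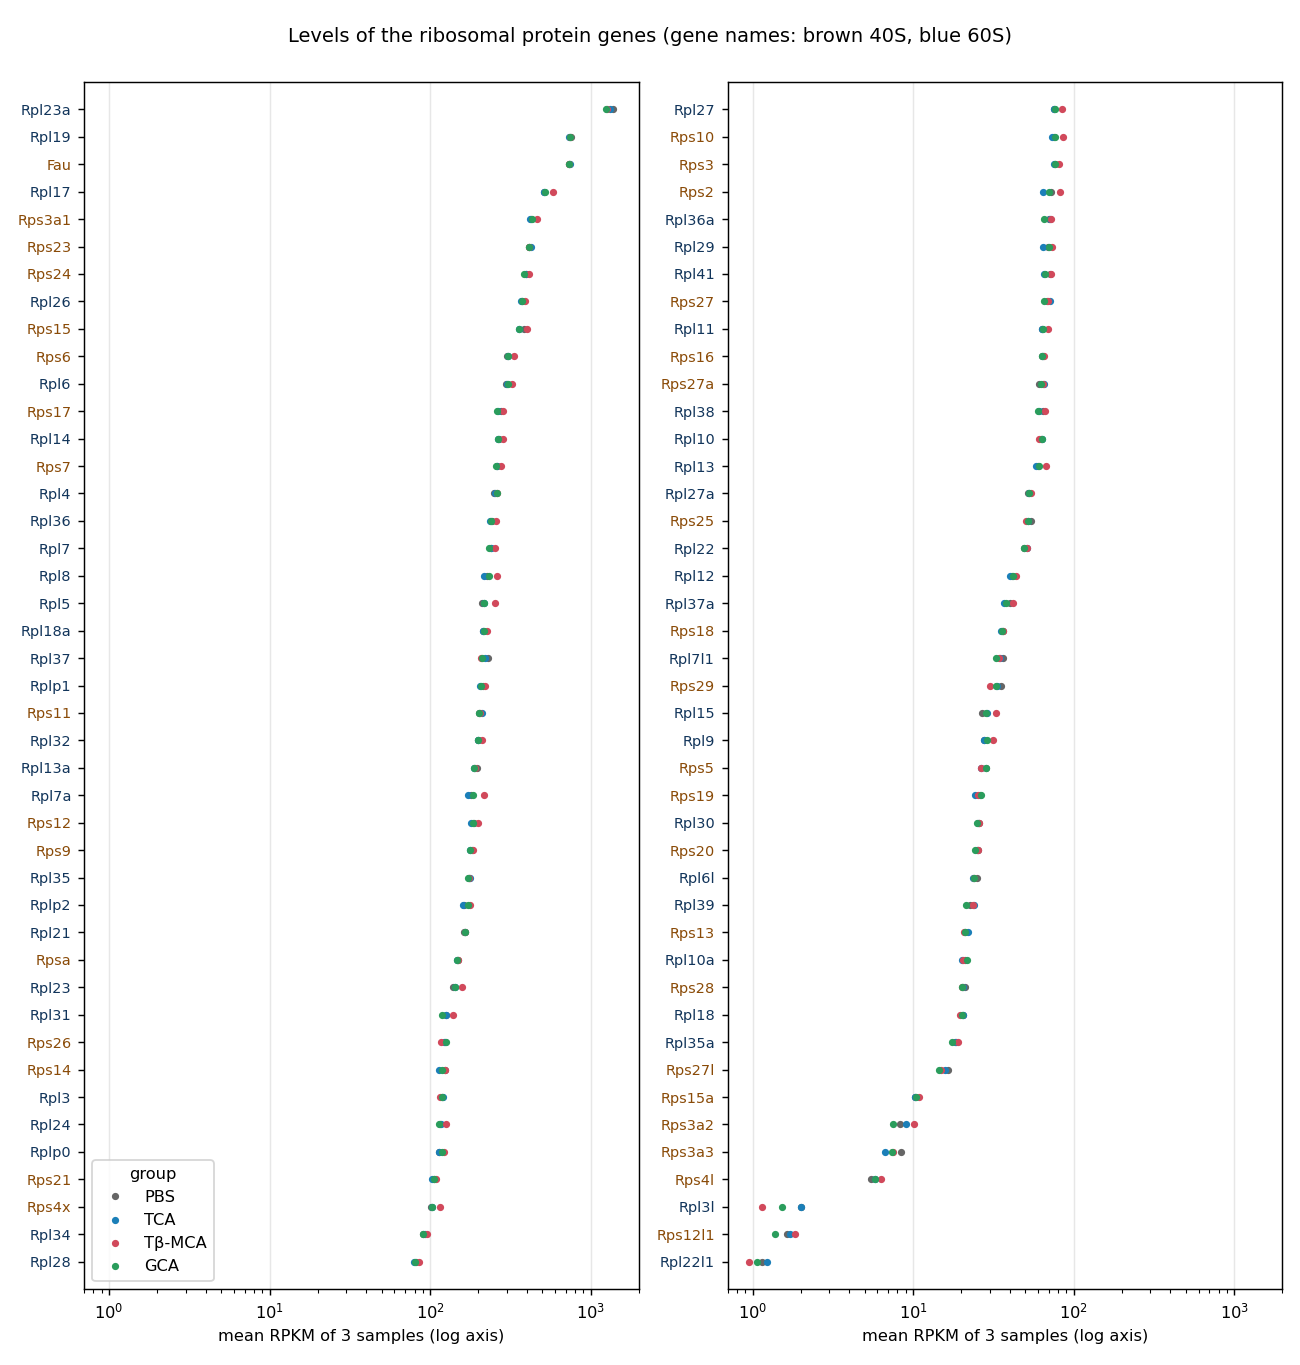
Mean RPKM of each ribosomal protein gene reported in the 4 groups (3 samples each; log axis), ordered by the mean over all samples, with 40S names in brown and 60S names in blue. The points of the 4 groups lie close together for most genes, while the genes range from 1.10 RPKM (Rpl22l1) to 1303 RPKM (Rpl23a) in the mean of all samples.

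The 3 members of lowest mean RPKM were Rpl22l1, Rps12l1 and Rpl3l. With PBS, Rpl22l1 was at 1.15 ± 0.29 RPKM, Rps12l1 at 1.64 ± 0.31 and Rpl3l at 2.01 ± 0.34. Next above them were Rps4l, Rps3a3 and Rps3a2. GENCODE vM21 lists 5 of the members, Rps12l1, Rps4l, Rps3a2, Rps3a3 and Rpl6l, as processed pseudogenes, and the other 82 as protein coding. These 5 resemble their parent genes in sequence, so their counts are uncertain. Rows named with -ps, which are no members, numbered 227 and held between 2.03% and 2.29% as many counts as the members, depending on the sample.

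The merged exon length also enters these levels. Rps15a, a 40S protein gene, was at 10.4 RPKM over a merged length of 6270 bases, which includes sequence that its main transcript splices out. Over the 87 members, length and mean RPKM had a rank correlation of -0.28 as a description. The order of levels between genes therefore holds for these lengths only. Nested genes add a further limit: 30 members hosted 58 small nucleolar RNA genes in the GENCODE annotation, 33 overlapped a gene of the table on the same strand and 23 overlapped one on the other strand. The library kit kept the strand, but whether the counting used it is not given in the sources used here.

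Among the members with known roles, the ribosomal stalk was represented by Rplp0 at 113 ± 20 RPKM with PBS, Rplp1 at 213 ± 33 and Rplp2 at 164 ± 12. With Tβ-MCA they were at 122 ± 6, 220 ± 6.9 and 177 ± 10. Rpsa, a 40S protein also known as the laminin receptor precursor, was at 150 ± 23 with PBS and 150 ± 12 with Tβ-MCA. Rps6, the substrate of the S6 kinases, was at 302 ± 42 and 334 ± 31. Rps3, which lines the mRNA entry of the 40S subunit, was at 76.7 ± 9.2 and 81.4 ± 8.8, Rps14 at 123 ± 11 and 124 ± 9.1, and Rps19, which is mutated in Diamond-Blackfan anaemia, at 26.1 ± 3.4 and 25.5 ± 2.8. Rpl11, which binds Mdm2 together with Rpl5, was at 63.4 ± 11 and 68.9 ± 8.2. Rpl13a, a member of the interferon-γ-activated inhibitor of translation complex, was at 196 ± 41 and 190 ± 25, and Rpl26 was at 373 ± 63 and 392 ± 39. The values of these genes overlapped between PBS and Tβ-MCA within 1 SD.

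The members took up 1.93% ± 0.25 of all counts with PBS (SD, n = 3), 1.91% ± 0.21 with TCA, 2.02% ± 0.14 with Tβ-MCA and 1.91% ± 0.21 with GCA. By sample, the share was 1.64%, 2.12% and 2.02% in PBS replicates 3, 5 and 6. In replicates 3, 4 and 5 it was 1.69%, 1.94% and 2.10% with TCA, 1.90%, 2.17% and 1.99% with Tβ-MCA, and 1.68%, 2.03% and 2.04% with GCA. The groups overlapped, and the differences between their means were smaller than the SD within each group. In bulk RNA, a smaller number of cells of a type cannot be told apart from less RNA per cell.

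The balance between the subunits was nearly constant. Counts on 60S members were 1.92 to 1.97 times those on 40S members in the 12 samples. The 40S members took 0.657% ± 0.090 of counts with PBS and 0.686% ± 0.051 with Tβ-MCA, and the 60S members took 1.27% ± 0.16 and 1.33% ± 0.086.

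**Figure D2:**
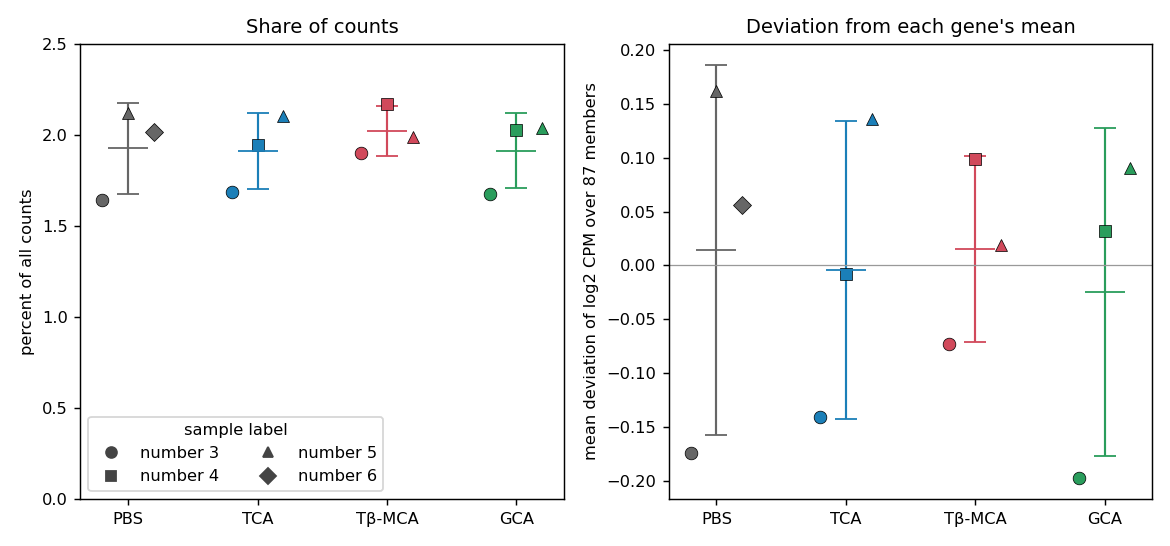
Left, percent of all counts on the 87 members in each sample; right, log2 CPM minus the gene's mean over all 12 samples, averaged over the members. Bars show the mean and SD of 3 samples and the symbol gives the number in the label; the sample numbered 3 is lowest in every group, and the groups overlap.

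Samples that carry the number 3 in their label stood apart. This was noticed after the values were seen, so it is described without a test. Averaged over the members, log2 CPM relative to the mean of each gene was -0.17, -0.14, -0.07 and -0.20 in the samples numbered 3 of PBS, TCA, Tβ-MCA and GCA. In the 8 other samples it was between -0.01 and 0.16, so the 4 samples numbered 3 lay below all others. The group means, by contrast, were 0.01, -0.004, 0.01 and -0.03.

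Single members showed the same pattern. The sample numbered 3 had the lowest CPM of its group for 82 of the 87 members with PBS, 77 with TCA, 64 with Tβ-MCA and 84 with GCA. Over all genes tested, it was lowest for 39.0%, 40.3%, 35.3% and 36.2%. In all 4 groups at once, the sample numbered 3 was below the mean of the other samples for 70 of 87 members (80.5%), compared with 16.8% of the genes tested. It was above that mean in all 4 groups for 1 member, Rps3a3, a retrocopy within Pde4d, against 16.8% of the genes. The exceptions at this end of the range also included Rpl7l1 and Rps27l.

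Rps2, which encodes a 40S protein, illustrated the pattern. Its CPM was 106, 151 and 145 in PBS replicates 3, 5 and 6, and 93.5, 130 and 135 in TCA replicates 3, 4 and 5. In the same replicates it was 126, 162 and 152 with Tβ-MCA and 98.6, 151 and 136 with GCA. Rpl3l had the largest mean log2 difference of the sample numbered 3 from the others in its group, at -0.57 ± 0.67 (SD over the 4 groups). By group, its difference ran from -1.545 with Tβ-MCA to -0.022 with TCA. The mean difference was -0.46 ± 0.10 for Rps2, -0.43 ± 0.12 for Rps28 and -0.39 ± 0.13 for Rps26. The median over the members was -0.23. It was -0.22 for the 60S members, and -0.01 for all genes tested.

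**Figure D3:**
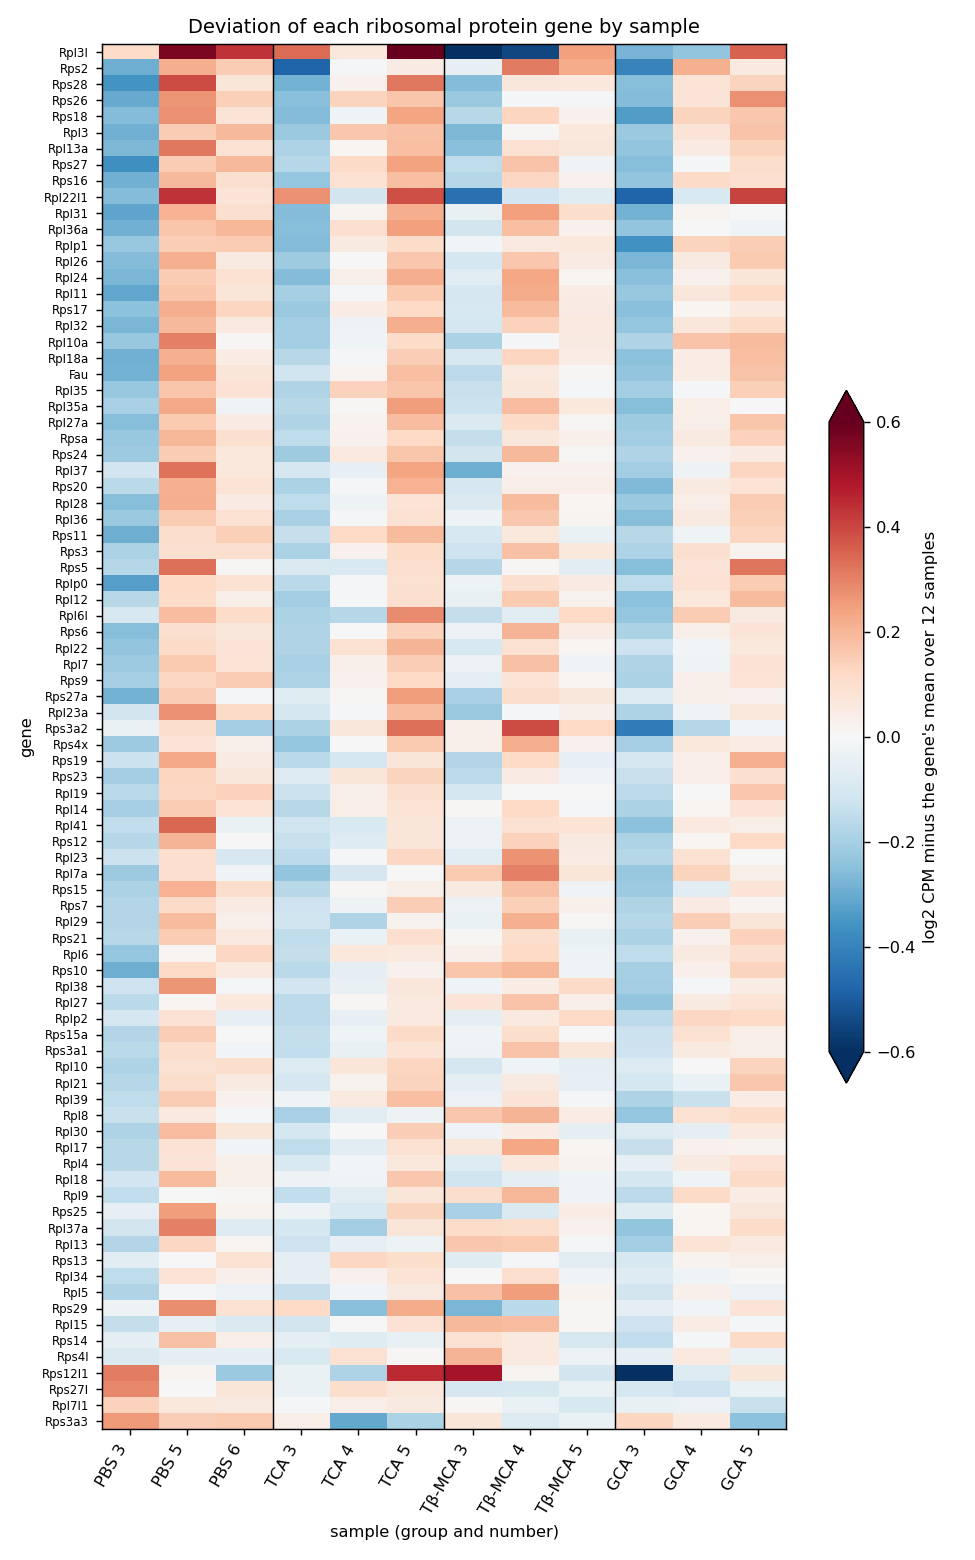
Log2 CPM of each member reported minus its mean over the 12 samples (colour, limited to ±0.6), by sample, with genes ordered by the difference of the samples numbered 3. The columns of PBS 3, TCA 3 and GCA 3 are blue for most genes, Tβ-MCA 3 less so, and the last rows (Rps27l, Rpl7l1 and Rps3a3) do not share the pattern.

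Some other lists of translation genes moved with these samples to a smaller extent, and others did not. The median difference of the samples numbered 3 was -0.14 for 13 elongation factors and their regulators, -0.12 for 107 ribosome biogenesis genes, -0.11 for 78 mitochondrial ribosomal protein genes and -0.05 for 38 initiation factors. For 39 regulators of mTORC1 and of TOP mRNAs it was 0.01, and for 23 genes of ribosome quality control 0.008. Mitochondrially encoded genes had their lowest share of counts of each group in the sample numbered 3, at 0.381%, 0.369%, 0.420% and 0.395%. Cell type markers differed in these samples too. The summed immature granulocyte markers were highest in the sample numbered 3 of all 4 groups, at 30170 CPM against 23340 and 23790 with PBS, 27260 against 22630 and 22820 with TCA, 21260 against 18260 and 20720 with Tβ-MCA and 28100 against 20460 and 22580 with GCA. The median marker of this list, by contrast, differed by -0.18 on the log2 scale in the samples numbered 3. For the other marker lists this median was -0.27 for monocytes and macrophages, -0.44 for erythroid cells and -0.06 for plasmacytoid and dendritic cells. It was 0.94 for B cells, 0.78 for eosinophils and basophils, 0.15 for proliferation, 0.09 for neutrophils and 0.02 for T and NK cells. Proliferation markers also summed highest of each group in these samples, at 3207, 2973, 3245 and 3268 CPM, against 2665 to 3040 CPM in the other 8. The summed markers of eosinophils and basophils (10 of 10 in the table, none at 0 in all samples of a group) were at 275.2, 248.8 and 272.2 CPM in the samples numbered 3 of PBS, TCA and GCA and at 133.6 to 172.1 CPM in the other samples of these groups. With Tβ-MCA the sample numbered 3 was at 114 CPM, and the other samples were at 73.8 and 145. The part of these genes in the level of the members was not tested, and the labels do not say what the samples with 1 number share. Without the 4 samples numbered 3, edgeR called 0 members in each of the 5 comparisons below, and the median log2 fold change of the members was -0.05 for Tβ-MCA, -0.04 for TCA and -0.04 for GCA against PBS. In that fit 1 gene of all tested was called in Tβ-MCA against PBS.

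Tβ-MCA, the only bile acid with genes called against PBS in the edgeR fit of all 12 samples, gave no member that passed the test. The comparison with PBS asked how the bile acid affected the neutrophils. With edgeR's quasi-likelihood test at a Benjamini-Hochberg adjusted p under 0.05, 0 of the 87 members were called, against 7.62% of all 16761 genes tested. At an unadjusted p under 0.05, 8 members were counted (4 higher, 4 lower), where 24.9% of the genes were counted. DESeq2 called 1 member, Rpl5, and 12.5% of the genes. The cutoffs of the methods of the study, an unadjusted p under 0.05 and a fold of 2, were met by 0 members and by 2.95% of the genes. The share of all genes called by edgeR depended on the samples in the fit. It was 0% in a fit of these 2 groups alone, and 0% without PBS replicate 3 or 5 or Tβ-MCA replicate 3 or 4. Without PBS replicate 6 it was 0.981%, and without Tβ-MCA replicate 5 it was 18.0%.

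The median log2 fold change of the members was 0.02, and that of all genes tested was 0.004. It was -0.01 for the 40S members and 0.03 for the 60S members. Of the 87, 49 had a positive and 38 a negative value. The 95% interval of the log2 fold change lay within ±0.5 for 80 members (92.0%), against 46.8% of the genes tested. Intervals were also narrower for the members, with a median half-width of 0.23 against 0.31, so these shares reflect precision as well. Samples of Tβ-MCA and PBS did not overlap for 7 members and for 27.0% of the genes. Those above PBS included Rpl15, Rpl5 and Rps4l, and those below were Rpl7l1, Rps27l and Rps3a3.

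Rpl15, a 60S protein gene (chr14:18267823-18271391, minus strand, GRCm38), had the lowest p. Its CPM was 63.3, 67.7 and 66.0 in PBS replicates 3, 5 and 6 and 80.1, 79.6 and 70.2 in Tβ-MCA replicates 3, 4 and 5. The groups did not overlap, and Tβ-MCA replicate 5 lay closest to PBS. The log2 fold change was 0.22 ± 0.07 (SE) with an adjusted p of 0.078. Rpl15 overlaps Nkiras1 on the other strand, and Nkiras1 rose by 0.73 on the log2 scale (edgeR, adjusted p = 0.0298), with a mean of 573 counts to the 2534 of Rpl15. The part of Nkiras1 in the counts of Rpl15 was not tested.

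Rpl5 (chr5:107900502-107909005, plus strand) encodes a 60S protein that carries 5S ribosomal RNA and binds Mdm2. It was at 771, 866 and 854 CPM with PBS and at 989, 1042 and 886 CPM with Tβ-MCA. All 3 Tβ-MCA samples were above all PBS samples, with replicate 5 closest to them. The log2 fold change was 0.23 ± 0.08 and the adjusted p was 0.0784 in edgeR and 0.0484 in DESeq2. Rpl7a, a 60S protein gene named after its values were seen, was at 288, 358 and 329 CPM with PBS and at 373, 412 and 352 CPM with Tβ-MCA. Its groups overlapped, and its log2 fold change was 0.22 ± 0.10 (edgeR, adjusted p = 0.193).

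The largest difference belonged to Rpl3l (chr17:24727820-24736143, plus strand), the paralog of Rpl3 that is known from skeletal and heart muscle. Its CPM was 2.75, 3.80 and 3.45 with PBS and 0.748, 1.73 and 3.02 with Tβ-MCA, from counts of 96, 129 and 128 and of 25, 64 and 113. Tβ-MCA replicates 3 and 4 were below all PBS samples, whereas replicate 5 was among them. The log2 fold change was -0.85 ± 0.36 (edgeR, adjusted p = 0.164), and it was -0.49 without Tβ-MCA replicate 3. Relative to Rpl3, whose mean was 119 RPKM with PBS and 115 RPKM with Tβ-MCA, Rpl3l was at 1.69% ± 0.11 with PBS and 0.952% ± 0.52 with Tβ-MCA (SD, n = 3).

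Rps29, which encodes a small zinc-binding 40S protein, was at 22.2, 27.5 and 24.2 CPM with PBS and 18.8, 20.2 and 22.8 CPM with Tβ-MCA. The groups overlapped, and the log2 fold change was -0.26 ± 0.12 (edgeR, adjusted p = 0.190). Rpl7l1 was at 99.0, 93.8 and 93.4 CPM with PBS and 90.5, 87.4 and 84.1 CPM with Tβ-MCA. These groups did not overlap, and the log2 fold change of -0.13 ± 0.06 (edgeR, adjusted p = 0.192) was the smallest of the 8. Rps27l, a p53-regulated paralog of Rps27, had a log2 fold change of -0.21 ± 0.10 (edgeR, adjusted p = 0.192), and PBS replicate 3 was its highest sample at 15.4 CPM.

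**Figure D4:**
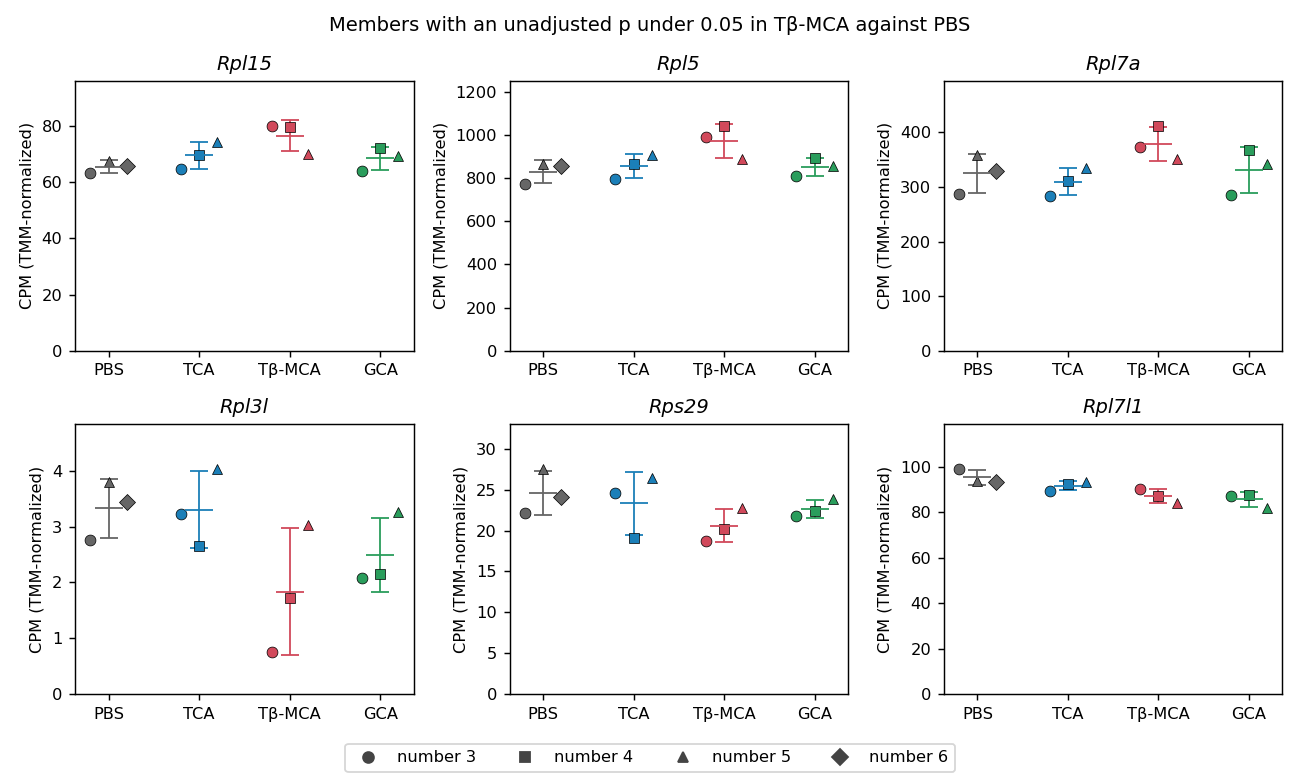
TMM-normalized CPM of Rpl15, Rpl5, Rpl7a, Rpl3l, Rps29 and Rpl7l1, which had an unadjusted p under 0.05 in Tβ-MCA against PBS, by sample, with mean and SD of 3 samples. Rpl15, Rpl5 and Rpl7l1 do not overlap between PBS and Tβ-MCA, and for Rpl3l the Tβ-MCA samples range from 0.748 to 3.02 CPM.

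Tβ-MCA replicate 5 was nearer to PBS than replicates 3 and 4 for Rpl15, Rpl5, Rpl7a, Rpl3l and Rps29, but farther for Rpl7l1. Without it, edgeR called 3 members: Rpl5 rose by 0.29 ± 0.08 on the log2 scale (adjusted p = 0.0154) and Rpl15 by 0.28 ± 0.08 (adjusted p = 0.0169), and Rpl3l fell by 1.41 (SE 0.32, adjusted p = 0.00710). Over the alternatives run, the adjusted p ranged from 0.0154 to 0.299 for Rpl5, from 0.0169 to 0.283 for Rpl15 and from 0.00247 to 0.381 for Rpl3l. The 3 of 87 called without Tβ-MCA replicate 5 stand against 18.0% of the genes tested in the same fit. Leaving out the Tβ-MCA sample nearest to PBS for these 3 genes favours larger differences. Their p-values in that fit therefore give no further support. With each other sample of the 2 groups left out in turn, 0 members were called. The summed markers of monocytes and macrophages (12 of 12 in the table, none at 0 in all samples of a group) were at 3256 to 3663 CPM with PBS. In Tβ-MCA they were at 607.9 CPM in replicate 3, at 776.7 CPM in replicate 4 and at 2597 CPM in replicate 5. Neutrophil markers summed to 36860 to 43470 CPM with PBS and to 30440 to 34590 CPM with Tβ-MCA. The part of these cells in the values of the members was not tested.

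With TCA, the taurine conjugate of cholic acid, no member was called against PBS in edgeR, where 0.0% of all genes were called, or in DESeq2 (0.00597%). At an unadjusted p under 0.05, 1 member was counted (3.26% of the genes), and 0 members met the cutoffs of the study's methods (0.465%). The median log2 fold change was -0.01. Groups without overlap were found for 2 members (9.67% of the genes), Rps3a3 and Rpl7l1, both below PBS. The member of lowest p was Rps3a3, at 7.06, 6.56 and 6.61 CPM with PBS and 6.08, 4.76 and 5.17 CPM with TCA, with a log2 fold change of -0.34 ± 0.13 (edgeR, adjusted p = 0.9999). All TCA samples were below all PBS samples. Next were Rps14 at -0.12 ± 0.08 and Rpl37a at -0.13 ± 0.11, and on the positive side Rpl15 at 0.09 ± 0.07, Rps27a at 0.11 ± 0.11 and Rps3a2 at 0.13 ± 0.16. The interval lay within ±0.5 for 82 members.

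GCA, the glycine conjugate, also gave no call in edgeR or in DESeq2, among the members or among all genes (0.0%). At an unadjusted p under 0.05, 2 members were counted, against 3.53% of the genes, and 0 met the cutoffs of the study's methods (0.531%). The median was -0.02, and 3 members had groups without overlap (9.55% of the genes), all of them below PBS. Rpl7l1 was at 87.3, 87.8 and 81.9 CPM with GCA, below the 3 PBS samples given above, with a log2 fold change of -0.16 ± 0.06 (edgeR, adjusted p = 0.999). Rps27l was at 15.4, 12.6 and 13.2 CPM with PBS and 11.7, 11.5 and 12.2 CPM with GCA, with a log2 fold change of -0.22 ± 0.10. Rps3a3 was at -0.20 ± 0.13. On the positive side, Rpl15 and Rpl4 were at 0.06 ± 0.07 and 0.05 ± 0.07. All 3 bile acids were compared with the same PBS samples.

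**Figure D5:**
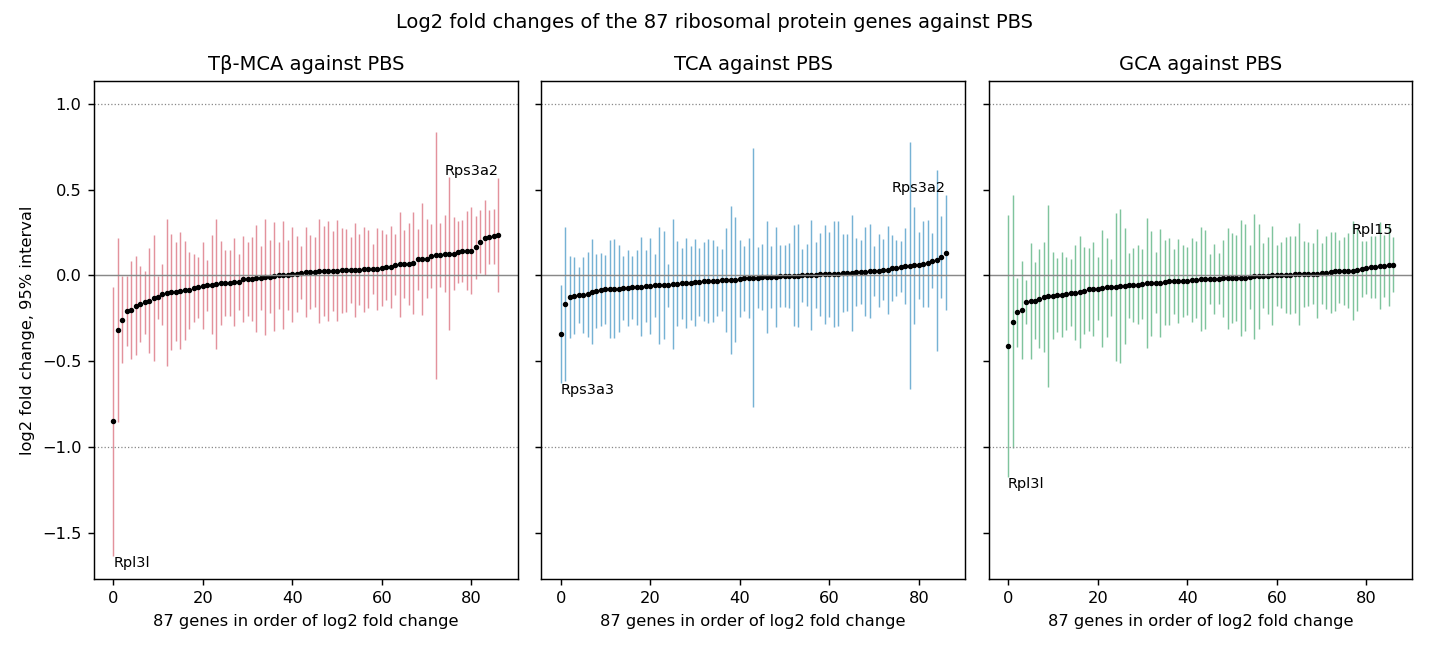
Log2 fold change (points) and 95% interval (lines) of each of the 87 members against PBS, ordered within each panel, with the lowest and highest member named and dotted lines at a fold of 2. Most intervals include 0 in every panel, and only those of Rpl3l (Tβ-MCA and GCA) and Rps12l1 (GCA) reach below the lower dotted line.

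TCA and GCA differ in the amino acid joined to cholic acid and were given at the same dose and for the same time. Of the 5 comparisons between groups, that of GCA with TCA gave 0 members called in edgeR (0.0% of the genes) or in DESeq2, and 0 members had an unadjusted p under 0.05 (2.46%). The median log2 fold change was -0.01. The 95% interval lay within ±0.5 for 82 members and within ±1 for 85, so differences up to these sizes may remain between the conjugates. Rps3a2 at -0.28 ± 0.16, Rpl39 at -0.16 ± 0.09 and Rpl7l1 at -0.10 ± 0.06 had the lowest p on the negative side. On the positive side these were Rps19 at 0.12 ± 0.10, Rpl29 at 0.11 ± 0.10 and Rpl8 at 0.09 ± 0.09. Groups without overlap were found for 1 member, Rpl7l1, and for 8.0% of the genes.

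Tβ-MCA and TCA share taurine and differ in the bile acid, and by the labels they also differ in dose. With edgeR, 0 members were called between them, compared with 3.51% of the genes (0.447% in a fit of these 2 groups alone). At an unadjusted p under 0.05, 5 members were counted (22.2% of the genes), 4 higher and 1 lower with Tβ-MCA, and DESeq2 called 0 (9.68% of the genes). The groups did not overlap for 4 members (25.3% of the genes), all above TCA, among them Rpl7a, Rpl8 and, named after its values were seen, Rpl13. Rpl7a was at 284, 311 and 334 CPM with TCA and at 373, 412 and 352 CPM with Tβ-MCA. The difference was 0.29 ± 0.10 on the log2 scale (edgeR, adjusted p = 0.110). Rpl8 was at 176, 192 and 197 CPM with TCA and at 225.2, 231.4 and 207.2 CPM with Tβ-MCA. Its log2 fold change was 0.23 ± 0.09 (edgeR, adjusted p = 0.129). For both genes all Tβ-MCA samples were above all TCA samples. Rpl5 was at 0.18 ± 0.08, Rpl3l at -0.84 ± 0.36, Rpl22l1 at -0.41 ± 0.25 and Rps13 at -0.11 ± 0.07. Without Tβ-MCA replicate 5, 2 members were called, Rpl5 (higher) and Rpl3l (lower), against 15.3% of the genes. For both genes that replicate was the Tβ-MCA sample nearest to TCA, so these calls give no further support.

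The 17 members named for their known roles included Rpl5 and otherwise stayed near 0. In Tβ-MCA against PBS the remaining 16 lay between -0.09 (Rpl13a) and 0.13 (Rpl23) on the log2 scale, with TCA between -0.12 (Rps19) and 0.11 (Rps27a), and with GCA between -0.11 (Rpl38) and 0.06 (Rplp0). In edgeR 0 of the 17 passed the test in each of the 5 comparisons, and 1, Rpl5, had an unadjusted p under 0.05 with Tβ-MCA against PBS and against TCA.

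Paralogs were at lower levels than their canonical genes in all groups. Rpl7l1 was at 15.3% ± 2.7 of Rpl7 in RPKM with PBS (SD, n = 3), 14.8% ± 1.5 with TCA, 13.6% ± 1.2 with Tβ-MCA and 14.1% ± 1.7 with GCA. Rps27l was at 25.7% ± 8.7 of Rps27 with PBS, where replicate 3 stood at 35.8%, and at 22.5% ± 2.3, 21.6% ± 2.4 and 22.3% ± 2.6 with TCA, Tβ-MCA and GCA. Rpl22l1 was at 2.33% ± 0.33 of Rpl22 with PBS and 1.86% ± 0.18 with Tβ-MCA, and Rps4l at 5.45% ± 0.53 of Rps4x with PBS and 5.51% ± 0.66 with Tβ-MCA. For these pairs the groups differed by less than the sum of their SDs.

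The wider translation machinery was read from lists of genes outside the rule. Over all genes tested, 4.44% rose and 3.18% fell in Tβ-MCA against PBS, which is the background for the counts of each list. Rpl36al, which encodes a ribosomal protein but falls outside the name rule, was at -0.31 ± 0.20 in Tβ-MCA against PBS (edgeR, adjusted p = 0.372). Of 13 elongation genes, 1 rose and 1 fell: Eef2, the translocase of elongation, rose by 0.34 on the log2 scale (edgeR, adjusted p = 0.0235), and Eif5a fell by 0.21 (edgeR, adjusted p = 0.0485). Eef1a1, which delivers aminoacyl-tRNA, was at -0.06 ± 0.08. Of 38 initiation genes, 3 rose and 1 fell. Pabpc4 rose by 0.49 and Pabpc1 by 0.34, both of which bind poly(A) tails, Eif1, which acts in start codon selection, rose by 0.28, and Eif4a2, an RNA helicase, fell by 0.20 on the log2 scale.

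Ribosome biogenesis genes numbered 107, of which 0 rose and 4 fell (3.74%), with a median of -0.10. Bysl, Rrp12 and Heatr1, which act in pre-ribosome processing, fell by 0.44, 0.48 and 0.43 on the log2 scale, and the remaining gene was Rrp15, named after its values were seen. Npm1, a nucleolar chaperone, was at 0.39 ± 0.13 (edgeR, adjusted p = 0.0899). Of 39 regulators of mTORC1 and of TOP mRNAs, 6 rose (15.4%) and 2 fell (5.13%). Tsc1 and Rragc, which act upstream of mTORC1, rose by 0.38 and 0.34, and Myc, a transcription factor that drives ribosome production, fell by 1.12 on the log2 scale (edgeR, adjusted p = 0.0208). Max, the partner of Myc, fell by 0.32. Immature granulocyte markers were lower as well: 11 of 11 had a negative log2 fold change, with a median of -0.78. Of these, 2 fell and 9 had an unadjusted p under 0.05. This was not particular to that list. The median was -0.91 for eosinophils and basophils, -0.85 for monocytes and macrophages, -0.77 for B cells and -0.47 for neutrophils. It was -0.37 for T and NK cells, -0.22 for plasmacytoid and dendritic cells, -0.11 for erythroid cells and -0.001 for proliferation. The part of any of these cells in the values of biogenesis genes and of Myc was not tested. Larp1 was at -0.04 ± 0.06. Of 78 mitochondrial ribosomal protein genes, Mrps35 rose by 0.70 and Mrps28 fell by 1.503 on the log2 scale, with a median of 0.004 over the list. Of 23 genes of ribosome quality control, 0 rose and 1, Ascc2, fell by 0.29. Without Tβ-MCA replicate 5, 8.67% of the same 16761 genes rose and 9.62% fell. The numbers that rose and fell were 1 and 4 for elongation, 5 and 5 for initiation, 6 and 17 for biogenesis, 8 and 7 for the regulators, 3 and 5 for the mitochondrial ribosome and 0 and 3 for quality control, so 21.5% of the biogenesis genes were called against 18.3% of all genes. In TCA or GCA against PBS, 0 genes of these lists were called by edgeR. At an unadjusted p under 0.05, where 3.26% of all genes were counted with TCA and 3.53% with GCA, TCA gave 1 elongation, 2 initiation, 3 biogenesis and 3 mitochondrial ribosomal genes. GCA gave 2 biogenesis genes, 1 regulator and 2 mitochondrial ribosomal genes.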

How the data were processed

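RNA sequencing of 12 samples of cultured mouse bone marrow neutrophils was analysed. Per the submitters' processing notes the authors used Trimmomatic 0.36, STAR 2.5.3a and featureCounts of Subread 1.5.1 on GRCm38 (mm10). The authors deposited raw counts per gene and RPKM values. RPKM recalculated from the counts differed by a relative difference of at most 1.3e-06. Strand use and treatment of reads with several hits in counting are not given in the sources used here.

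Counts were tested with edgeR 4.0.16 in R 4.3.3: TMM, filterByExpr by group, robust quasi-likelihood fit of all 12 samples, Benjamini-Hochberg adjustment over 16761 genes. CPM of single genes used TMM library sizes, CPM of summed markers the total count of each sample, and log2 CPM a prior count of 2. Alternatives were DESeq2 1.42.0, total library size, no filter, at least 10 counts per sample, fits of 2 groups, a replicate block and leaving out each sample. Total counts were 32757389 to 41375925, where 3 counts correspond to at most 0.0916 CPM.

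Members, gene lists and the rule for named genes (lowest p in each direction per comparison, highest and lowest RPKM, members of known role, paralog pairs) were chosen with earlier results of these data known. Some genes are not reported here, in the text or in the plots that name genes. Plots used matplotlib 3.10.9.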

Additional observations from a re-analysis of the deposited data

How the results depend on the processing

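In Tβ-MCA against PBS the number of members called was 0, and it became 3 with no filter on low counts (3.45%, against 8.09% of all genes), 1 with DESeq2 (1.15%, against 12.5%) and 0 to 3 when each sample was left out in turn. Of all genes, 0 were called in a fit of these 2 groups alone, and 0 without PBS replicate 3 or 5 or Tβ-MCA replicate 3 or 4. In Tβ-MCA against TCA the number of members called was 0, and it became 4 with no filter (4.6%, against 6.98%) and 0 to 2 when each sample was left out. The cause was not tested, except that leaving out Tβ-MCA replicate 5 gave the 3 (3.45%, against 18.0% of all genes) and the 2 (2.3%, against 15.3%). In the other comparisons it was 0 under every alternative run. Without the 4 samples numbered 3, an alternative chosen after seeing the data, 0 members were called in all 5 comparisons, and all genes called in Tβ-MCA against PBS numbered 1.

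The replicate block raised the number of members called in Tβ-MCA against TCA from 0 to 5 (4 higher, with Rps2, Rpl7a and Rpl8 among them, and Rpl3l lower; 5.75%, against 13.9% of all genes) and changed no other count of members. Deviations from the group means were correlated over all genes tested. They averaged 0.189 (0.0597 to 0.326) for the 15 pairs of samples with the same number and -0.0716 (-0.2685 to 0.154) for the 39 other pairs. In 26 of 30 cases a sample correlated best with its own number. Over the members the averages were 0.365 (0.0847 to 0.53) for the same number and -0.134 (-0.608 to 0.571) for the other pairs, with 25 of 30 best with their own number. Samples with the same number were thus more alike on average than others, over the members and over all genes, but the ranges overlapped. Over all genes, the 15 correlations of samples with the same number were all positive, though not every one exceeded 0.1. The number was not in the main fit because the labels do not say what it marks. The 0 members called in Tβ-MCA against TCA therefore hold for a fit without the block.

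When each sample was left out in turn, the median log2 fold change of the members ranged from -0.09 to 0.09 (Tβ-MCA against PBS), -0.12 to 0.06 (TCA), -0.13 to 0.06 (GCA), -0.08 to 0.07 (GCA against TCA) and -0.04 to 0.11 (Tβ-MCA against TCA). Without the 20 most abundant genes that are no member, the share of counts was higher in every group, since the denominator was smaller. It was 2.17% with PBS, 2.15% with TCA, 2.24% with Tβ-MCA and 2.14% with GCA. In TCA or GCA against PBS, the sign of 4 named members turned when 1 sample was left out. The log2 fold change then ranged from -0.00298 (without PBS replicate 3) to 0.21 for Rps27a, from -0.0088 (without TCA replicate 5) to 0.25 for Rps3a2 and from -0.21 to 0.017 (without PBS replicate 5) for Rpl37a with TCA. With GCA it ranged from -0.023 (without PBS replicate 3) to 0.092 for Rpl4.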
